A study of Mus musculus with 8 samples.

Results

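Among the miRNAs that were bound to Argonaute proteins in mouse brain, 8 are best known from other organs. They are mmu-miR-1a-3p and mmu-miR-133a-3p of striated muscle, mmu-miR-122-5p of liver, mmu-miR-203-3p and mmu-miR-205-5p of skin and other epithelia, mmu-miR-192-5p and mmu-miR-194-5p of gut, liver and kidney, and mmu-miR-375-3p of endocrine cells, and the species prefix is left out from here on. Their reads were found by miRNA name, and the values of all read sequences with the same miRNA name were added up. The 8 names were among 895 miRNA names in the table and covered 132 of its 47204 distinct read sequences. The comparison asked how much miRNA typical of non-brain tissue each library held, and whether that amount differed between the genotypes.

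All mice carried the 5XFAD transgene, which expresses mutant human amyloid precursor protein and presenilin in neurons under the Thy1 promoter and models the amyloid deposits of Alzheimer's disease. One group, 5XFADtg Rubicon+/- (het), had a single working copy of Rubicon, a gene that restrains autophagy, and the other, 5XFADtg Rubicon-/- (ko), had none. Each genotype had 4 libraries, each from a different mouse by its label, so that the p-values measure the spread between mice. The study's methods give the same number of mice per genotype as the labels. Its results text mentions fewer het mice and its figure legend fewer samples, and the labels were followed. The mice were females on a mixed C57BL/6J and SJL background and, by the study's description of this comparison, were 6 months old and matched for age, although its methods give 6 or 8 months for these lines. Whether blood was flushed from the frozen brains was not given in the sources used here. Cortex and hippocampus were pooled for each mouse, Argonaute proteins were captured with a peptide of their partner GW182, and the small RNAs that came with them were sequenced. Mice without the transgene were not analysed here.

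miRNAs are cut from hairpin precursors and guide Argonaute to mRNAs that pair with their seed, the bases near the 5′ end of the guide. Some are made in nearly every cell, whereas others are restricted to a lineage. miR-1 and miR-133a are cut from the same primary transcripts in heart and skeletal muscle, where they drive muscle differentiation and shape myoblast growth. miR-122 is the leading miRNA of hepatocytes and acts in lipid metabolism. miR-203 pushes skin stem cells towards differentiation, miR-205 is abundant in basal epithelial cells, miR-192 and miR-194 lie together in hairpin clusters that are active in gut, liver and kidney epithelium, and miR-375 restrains insulin secretion in pancreatic islets and is also made in the pituitary. In bulk tissue, fewer cells of a type and less miRNA per cell cannot be told apart.

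Of the 8 miRNAs, 4 had a mature sequence in the RefSeq table used here (GRCm38.p6). They are shown to make clear which seeds entered the RISC, with bases 2 to 8 in capitals, together with miR-215-5p, the relative of miR-192-5p that has the same seed.
miR-192-5p: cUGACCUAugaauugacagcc
miR-215-5p: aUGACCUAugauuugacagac
miR-194-5p: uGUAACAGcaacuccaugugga
miR-203-3p: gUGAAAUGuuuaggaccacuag
miR-205-5p: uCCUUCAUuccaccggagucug
The 4 members each have a seed of their own.

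The reads that made up these miRNAs were not all of 1 form. The leading reads are shown as sequenced, with bases 2 to 8 of the read in capitals, because the capitals move when a read starts 1 base later.
miR-194-5p, 22 nt: tGTAACAGcaactccatgtgga
miR-194-5p, 21 nt: tGTAACAGcaactccatgtgg
miR-194-5p, 23 nt: tGTAACAGcaactccatgtggaa
miR-203-3p, first base: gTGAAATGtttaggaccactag
miR-203-3p, 1 base later: tGAAATGTttaggaccactag
miR-192-5p, first base: cTGACCTAtgaattgacagcc
miR-192-5p, 1 base later: tGACCTATgaattgacagccag
miR-205-5p, 21 nt: tCCTTCATtccaccggagtct
miR-205-5p, 22 nt: tCCTTCATtccaccggagtctg
In miR-194-5p the forms differ at the 3′ end and keep the seed, whereas in miR-203-3p and miR-192-5p the later start gives another seed.

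On GRCm38.p6, the hairpin of miR-203 (Mir203) lies on the plus strand at chr12:112130880-112130955, where the GENCODE M21 annotation has no other gene. Mir205 lies on the minus strand at chr1:193507463-193507530 in an exon of the long noncoding RNA 4631405K08Rik. Mir192 (chr19:6264844-6264932) and Mir194-2 (chr19:6264643-6264728) lie 115 bases apart on the plus strand with no other gene. Mir194-1 (chr1:185313319-185313385, plus strand) lies within the antisense gene 2010103J01Rik and, on the opposite strand, within Iars2, outside the exons of both, and 195 bases from Mir215. Mir375 lies on the minus strand at chr1:74900658-74900721 with no other gene.

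The libraries held 509839 to 19878054 reads, and both libraries above 5000000 reads were ko (replicates 1 and 2). The other ko libraries, with 2313082 and 1010177 reads, lay within the range of the het libraries. A level of 3 reads, the floor used here, corresponded to 5.79 CPM (reads per 1000000 reads of a library) in het replicate 1, the shallowest, and 0.151 CPM in ko replicate 2, the deepest. Of the 132 sequences of the 8 miRNAs, the libraries held between 41 and 126. Intervals and floors below cover counting error only, as the reads had no molecular identifiers.

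All 8 miRNAs were found in all 8 libraries. Together they reached 980.7, 812.3, 932.6 and 844.0 CPM in het replicates 1 to 4 and 652.8, 943.6, 615.3 and 529.1 CPM in ko replicates 1 to 4, or 0.0529% to 0.0981% of reads. Most ko libraries lay below the het libraries, but ko replicate 2 lay within the het range, so the groups overlapped. The mean sums were 892.4 ± 77.9 CPM in the het and 685.2 ± 179.9 CPM in the ko libraries (SD, n = 4 each). For comparison, 5 miRNAs of neurons and glia (miR-124-3p, miR-9-5p, miR-128-3p, miR-219a-2-3p and miR-338-3p) summed to 150660 to 251449 CPM per library, which fits the label of brain tissue. miR-128-3p alone, a neuronal miRNA and the most abundant of that list, was on average 207-fold above miR-194-5p and 7658-fold above miR-205-5p. The scarcest of that list, miR-219a-2-3p of oligodendrocytes, averaged 1295 ± 274 CPM and miR-194-5p 330.8 ± 93.7 CPM (SD, n = 8).

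**Figure D1:**
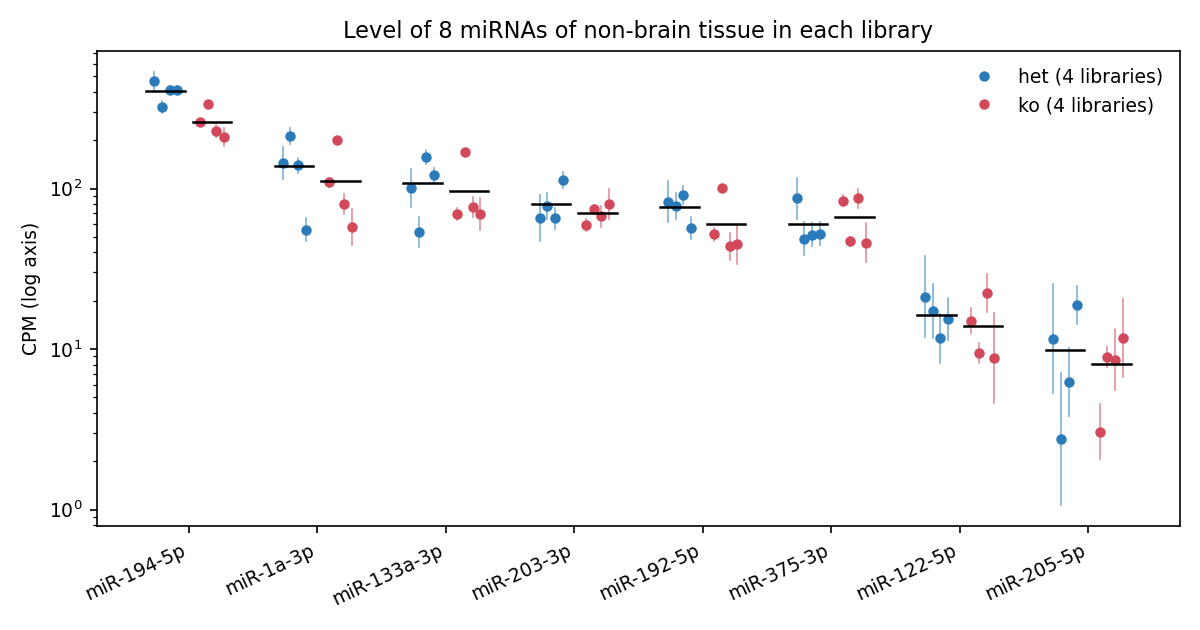
Levels of the 8 miRNAs in each library, in CPM on a log axis, with het and ko libraries in separate colours, the mean of each genotype as a black bar, 95% Wilson intervals of single libraries as thin lines, and the miRNAs in order of their mean. miR-194-5p sits highest with 209.7 to 467.2 CPM, and miR-205-5p lowest with 2.75 to 18.8 CPM.

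The most abundant member was miR-194-5p, an epithelial miRNA induced by hepatocyte nuclear factors, at rank 185 of 895. It measured 467.2, 322.6, 410.8 and 411.5 CPM in the het and 260.7, 334.9, 229.4 and 209.7 CPM in the ko libraries. Of the ko libraries, 3 lay below the lowest het library and ko replicate 2 lay just above it. The means were 403.0 ± 59.8 CPM in the het and 258.7 ± 55.0 CPM in the ko libraries (SD, n = 4 each), a ratio of 0.642. On the log2(CPM + 1) scale the difference of ko minus het was -0.65 (SE 0.25, 95% interval -1.19 to -0.10, limma adjusted p = 0.529 over 463 miRNAs), so it did not pass the test. Its unadjusted limma p of 0.0231 was the 19th smallest of 463. With only the most abundant read of each miRNA, the difference was -0.22, with each library centred on its median it was -0.43, and without ko replicates 1 and 2 it was -0.86.

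miR-192-5p, whose hairpin lies beside 1 of the 2 hairpins of miR-194-5p, was lower in level, at 83.0, 77.7, 90.9 and 56.7 CPM in the het and 51.9, 100.3, 43.8 and 45.1 CPM in the ko libraries. Here too 3 ko libraries lay below all het libraries, while ko replicate 2 lay above all of them. The log2 difference was -0.42 (SE 0.35, 95% interval -1.17 to 0.34, limma adjusted p = 0.947), and without ko replicate 2 it was -0.69 (limma adjusted p = 0.430). It was -0.19 with median centring, -0.22 with edgeR and -0.21 with DESeq2 on the recovered reads, and 0.014 with the most abundant read alone. Its relative miR-215-5p, from the other cluster, averaged 1.71 CPM.

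The muscle pair came next. miR-1a-3p measured 144.8, 211.8, 139.4 and 55.6 CPM in the het and 109.5, 199.5, 79.9 and 57.8 CPM in the ko libraries, and miR-133a-3p measured 100.4, 53.6, 156.9 and 121.3 CPM in the het and 69.1, 168.6, 76.9 and 69.6 CPM in the ko libraries. Both ranges overlapped widely. The highest ko library was replicate 2 for both, whereas the highest het library was replicate 2 for miR-1a-3p and replicate 3 for miR-133a-3p. The log2 difference was -0.31 for miR-1a-3p (SE 0.46, 95% interval -1.30 to 0.68, limma adjusted p = 0.975). It depended on single libraries, from -0.69 without het replicate 4 to -0.044 without ko replicate 4, and was -0.86 without ko replicates 1 and 2. For miR-133a-3p it was -0.18 (SE 0.40, 95% interval -1.05 to 0.69, limma adjusted p = 0.975), and it was 0.045 with median centring. The muscle miRNA miR-206-3p, which has the seed of miR-1a-3p, was lower, at 16.6 ± 8.67 CPM over the 8 libraries (SD), and had no read in het replicate 1, where 3 reads correspond to 5.79 CPM.

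Of the epithelial pair, miR-203-3p was at 65.6, 77.7, 65.2 and 112.6 CPM in the het and 59.3, 74.9, 67.0 and 80.3 CPM in the ko libraries, and had the smallest relative spread of the 8, with a coefficient of variation of 22.1% over the libraries. Its log2 difference was -0.16 (SE 0.31, 95% interval -0.82 to 0.50, limma adjusted p = 0.975), and it was 0.062 with median centring. miR-205-5p was the scarcest and the most variable member (58.5%), at 11.6, 2.75, 6.21 and 18.8 CPM in the het and 3.05, 8.94, 8.59 and 11.8 CPM in the ko libraries. These values rest on 4 to 178 reads. With a mean of 8.96 CPM it fell short of the 10 CPM needed to enter the fit, and its difference of mean log2(CPM + 1) was -0.11 (exact two-sided permutation p = 0.886, where the smallest possible was 0.0286).

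miR-375-3p of endocrine cells was at 86.9, 48.8, 51.6 and 52.2 CPM in the het and 84.2, 47.1, 87.2 and 46.1 CPM in the ko libraries. In both genotypes the libraries lay either near the upper or near the lower end of this range, and the log2 difference was 0.12 (SE 0.35, 95% interval -0.65 to 0.88, limma adjusted p = 0.975). It was 0.34 with median centring, 0.29 with edgeR and 0.31 with DESeq2, and turned to -0.018 without ko replicate 1 and -0.034 without ko replicate 3. The liver miRNA miR-122-5p was at 21.2, 17.2, 11.6 and 15.4 CPM in the het and 15.01, 9.44, 22.3 and 8.82 CPM in the ko libraries. The highest and the lowest value were both in ko. Its log2 difference was -0.28 (SE 0.46, 95% interval -1.27 to 0.71, limma adjusted p = 0.975), and ranged from -0.53 without ko replicate 3 to -0.11 without ko replicate 4. It was -0.060 with median centring, -0.072 with edgeR, -0.056 with DESeq2 and -0.040 without the shallowest and the 2 deepest libraries. In ko replicate 4 the value stands on 9 reads, with a 95% Wilson interval of 4.64 to 16.8 CPM, and in het replicate 1 on 11 reads, with 11.9 to 38.0 CPM.

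**Figure D2:**
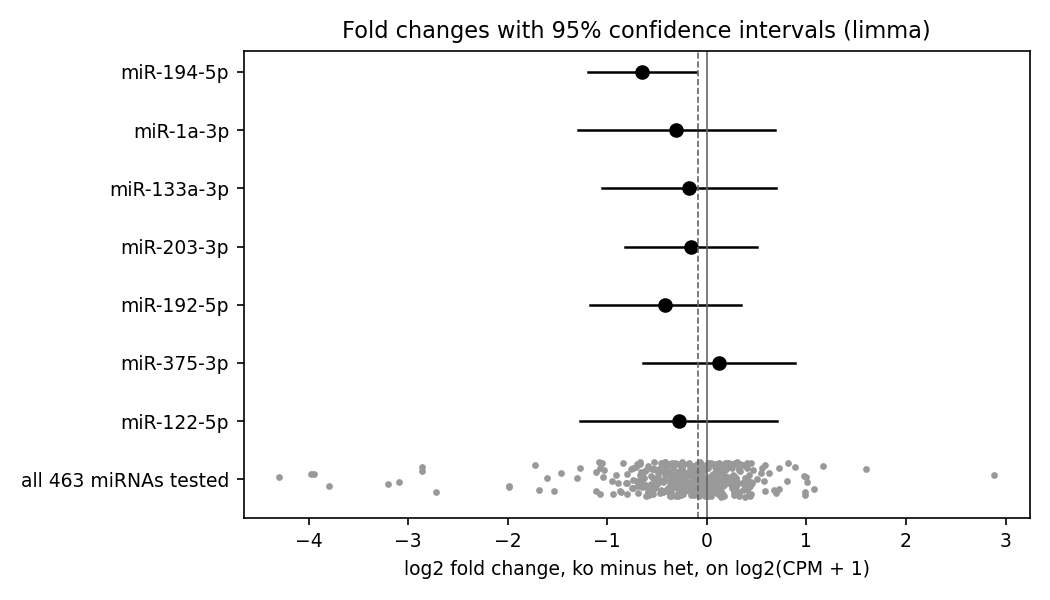
Difference of ko minus het in mean log2(CPM + 1) for the 7 miRNAs that entered the limma fit, with 95% intervals as lines, above grey points for all 463 miRNAs and a dashed line at their median of -0.090. miR-194-5p lies at -0.65 and its interval ends at -0.10, whereas the intervals of the other 6 include 0.

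None of the 7 members in the fit passed an adjusted p of 0.05 with limma, against 6 of all 463 miRNAs (1.30%). Without adjustment 1 of 7 (miR-194-5p) had a limma p under 0.05, against 7.34% of all miRNAs in either direction and 6.91% in this one, and 0 of 7 with edgeR or DESeq2 on the recovered reads, which also called 0 after adjustment. No member had groups that did not overlap, against 3.46% of all miRNAs in either direction and 3.24% that were lower in ko. The log2 difference was below 0 for 6 of 7 members, as for 59.4% of all miRNAs, and the median was -0.28 over the 7 and -0.090 over all. With median centring the median of all miRNAs moved to 0.13 and 4 of 7 members were below 0. The unadjusted calls over all miRNAs were 32 lower and 2 higher in ko in the fit, and 16 lower and 12 higher with centring. The coefficient of variation had a median of 32.0% over the 7 members and 34.2% over the 463 miRNAs.

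In the order of levels, most neighbours could not be separated. miR-194-5p was above miR-1a-3p in 8 of 8 libraries, with a median ratio of 2.91, and miR-375-3p was above miR-122-5p in 8 of 8, with a median ratio of 4.26 and no overlap of their ranges. Between these steps, miR-1a-3p was above miR-133a-3p in 5 libraries, miR-133a-3p above miR-203-3p in 6, miR-203-3p above miR-192-5p in 5, and miR-192-5p above miR-375-3p in 4. miR-122-5p was above miR-205-5p in 6 of 8. These are ratios of reads, and capture and ligation may differ between sequences.

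The seed score deposited with each read describes how well mouse cells survive an siRNA that has the same seed (positions 2 to 7), and low values mark toxic seeds. It was not measured in these mice. By their main seed the members ranged from miR-192-5p, with 38.2, to miR-194-5p, with 74.5. miR-375-3p had 45.6, miR-1a-3p 51.7, miR-122-5p 61.5, miR-203-3p 66.4, miR-133a-3p 71.0 and miR-205-5p 73.1. Of the reads with a viability under 40, the 8 miRNAs carried 0.0310% to 0.0726% per library.

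In 3 members a sizeable share of reads had another seed because they started later. In miR-133a-3p, reads from the first base held 51.2% of the level, reads that started 1 base later held 44.5%, and reads that started 2 bases later held 4.35%, and the seed viability of these starts was 71.0, 53.8 and 10.8. The share of the first base varied from 42.3% in het replicate 2 to 63.4% in ko replicate 1. In miR-203-3p the later start held 37.1%, with a viability of 76.6 in place of 66.4, and in miR-192-5p 13.4%, with 64.0 in place of 38.2.

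For miR-203-3p the share of later starts was largest in het replicate 3. Neither this share nor that of miR-192-5p was flagged by Dixon's rule, which is described below. In het replicate 3 the later start held 110 of 168 reads (65.5%, 95% Wilson interval 58.0 to 72.2), whereas it held 27.4% to 42.9% in the other 7. In miR-192-5p, het replicate 2 had none of 113 reads with the later start, which allows a share of up to 2.65% at 3 reads, while het replicate 3 had 49 of 234 (20.9%, 95% Wilson interval 16.2 to 26.6). In the other 5 members, at least 97.0% of the level had the main seed. Only miR-194-5p had at least 100 reads in every library and was compared between genotypes. Its share of reads with another start was 1.30% ± 1.44 in het and 1.65% ± 1.26 in ko (SD, n = 4 each), with an exact two-sided permutation p of 0.8, and its mean read length was 21.99 ± 0.157 nt and 22.04 ± 0.206 nt (exact two-sided permutation p = 0.657).

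**Figure D3:**
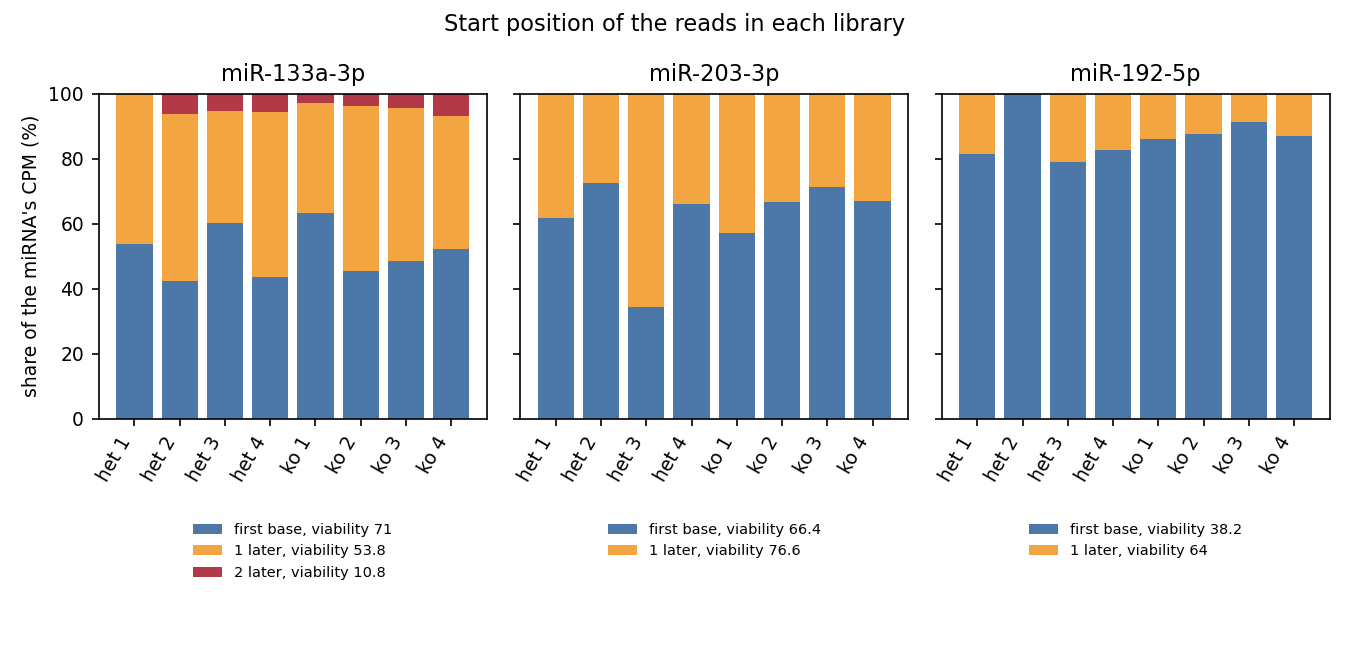
Share of each miRNA's level by start position of the reads, in percent, for miR-133a-3p, miR-203-3p and miR-192-5p in each library, with the seed viability of each start in the legend. In het replicate 3 the later start holds 65.5% of miR-203-3p, and in het replicate 2 miR-192-5p has the first start alone.

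The 3′ ends of miR-194-5p bear on its 2 hairpins. The 22 nt read held 43.3% of its level, the 21 nt read 26.8% and the 23 nt read 21.8%. The 22 nt read was at 139.0, 129.3, 186.4 and 160.3 CPM in the het and 152.8, 155.6, 123.7 and 99.9 CPM in the ko libraries, and the groups overlapped widely. The 21 nt read was at 166.0, 110.0, 130.1 and 72.8 CPM in the het and 50.5, 89.4, 60.6 and 29.4 CPM in the ko libraries, and the 23 nt read at 135.1, 58.5, 72.2 and 129.9 CPM in the het and 32.3, 60.4, 32.7 and 56.8 CPM in the ko libraries. In both of these, ko replicate 2 alone was above the lowest het library. The division by length was made after the values of the miRNA were known and was not tested.

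Reads that match both hairpins made up 71.9% of miR-194-5p and reads that match only Mir194-2, the neighbour of Mir192, made up 22.3% (13.5% to 32.2% per library). Those that match only Mir194-1 made up 0.0912%. An A added to the 22 nt read gives the letters of the 23 nt read, so reads of Mir194-2 and reads with such a tail cannot be told apart. Reads whose last bases match neither hairpin made up 5.59%. Among the other members, such tails made up 14.9% of miR-203-3p, 12.99% of miR-192-5p and 10.6% of miR-375-3p, mostly with T, and 1.10% of miR-205-5p. Reads of 22 nt made up 84.3% of miR-375-3p and 81.2% of miR-1a-3p, whereas miR-122-5p was spread over 21, 22 and 23 nt with 30.2%, 35.7% and 34.1%.

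The opposite arms of the hairpins, which are mostly discarded when a guide strand is loaded, were scarce. Over all libraries they had 20 reads for miR-194 (0.162% of both arms), 25 for miR-1a (0.417%), 17 for miR-133a (0.338%), 29 for miR-203 (1.02%) and 41 for miR-192 (1.31%). All 20 reads for miR-194 were of miR-194-2-3p, and none was listed for the other arm of Mir194-1. These counts cover reads with a mature name. Reads that matched a hairpin without such a name are not in them and were not assigned to an arm, and they averaged 5.04 CPM for mir-194-2, 3.48 CPM for mir-203 and at most 1.11 CPM for any other hairpin of the 8. No read was listed for the other arm of miR-375, miR-122 and miR-205. The table leaves out sequences with fewer than 8 reads in all, so rarer reads of these arms would not be seen and no upper limit is given.

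Members that are made together in their home tissue were compared over the 8 libraries. The ratio of miR-1a-3p to miR-133a-3p ranged from 0.458 in het replicate 4 to 3.95 in het replicate 2, with a median of 1.11. Their log2 levels had a Pearson r of 0.14 (exact permutation p = 0.737, n = 8) and a Spearman rho of -0.024 (exact permutation p = 0.977), and r was 0.19 without the 2 libraries farthest from the median of miR-1a-3p. miR-192-5p stayed at 0.138 to 0.299 of miR-194-5p. This pair had r = 0.74 (exact permutation p = 0.0519, adjusted over 3 pairs 0.156, n = 8) and rho = 0.69 (exact permutation p = 0.0694, adjusted 0.208), and r was 0.78 without the 2 farthest libraries. With the genotype means subtracted r was 0.69 (exact permutation p = 0.0594), and 0.29 without the 2 farthest. For miR-203-3p and miR-205-5p, r was 0.60 (exact permutation p = 0.114, adjusted 0.172) and rho 0.57 (exact permutation p = 0.151), but r was -0.19 without ko replicate 1 and het replicate 4, so the relation rests on those libraries. No pair passed the adjusted threshold.

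**Figure D4:**
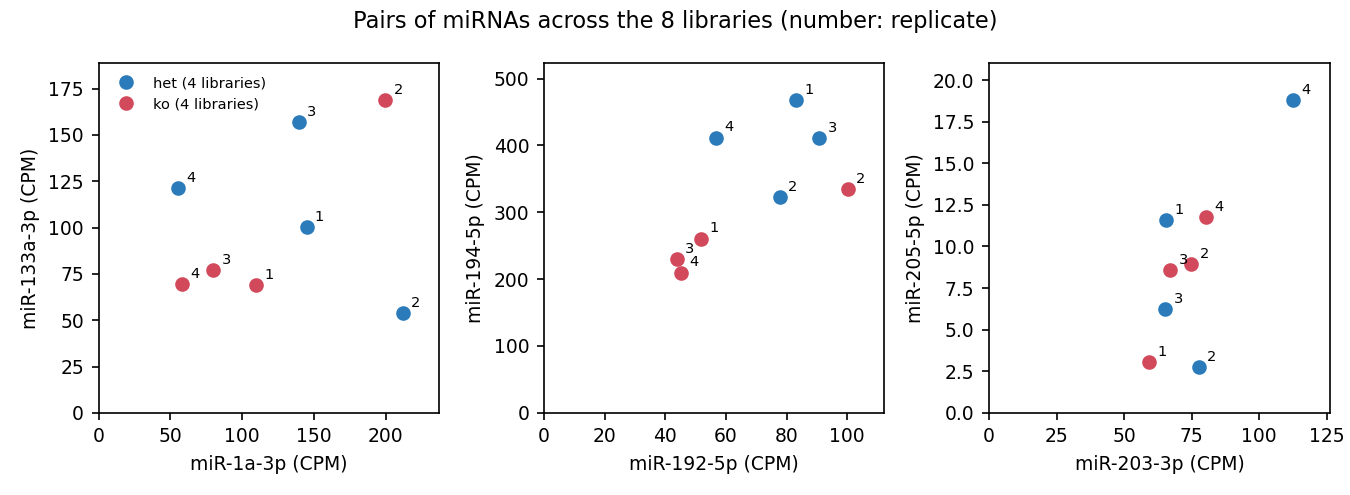
Levels in CPM of 3 pairs of miRNAs that share a home tissue, with 1 point per library, numbered by replicate, in the colour of its genotype. miR-192-5p has an r of 0.74 with miR-194-5p on the log2 scale, which did not pass after adjustment, whereas miR-1a-3p and miR-133a-3p are scattered with r = 0.14.

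The miRNAs with the most similar pattern over the 8 libraries, after the genotype means were subtracted, were mostly other than members. These are the highest of 462 correlations for each member over 8 points that share library and depth, and are given as a description. For miR-1a-3p they were miR-140-5p (r = 0.996), miR-872-5p (0.984) and let-7g-5p (0.982), for miR-133a-3p miR-345-5p (0.964), miR-409-5p (0.923) and miR-27a-3p (0.903), and for miR-122-5p miR-7224-3p (0.924), miR-342-3p (0.914) and miR-532-5p (0.902). For miR-192-5p they were miR-143-3p (0.935), miR-411-5p (0.917) and miR-29a-3p (0.909), for miR-194-5p miR-433-5p (0.952), miR-15a-5p (0.930) and miR-223-3p (0.855), and for miR-375-3p miR-494-3p (0.915), miR-7080-3p (0.914) and miR-122-5p (0.862). The epithelial miR-203-3p was nearest to miR-429-3p (0.862), a member of the epithelial miR-200 family, followed by miR-490-5p (0.836) and miR-490-3p (0.802).

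Other miRNAs of the same tissues were examined beside the 8. Further muscle miRNAs summed to 38.7 ± 12.7 CPM in the het and 38.8 ± 10.2 CPM in the ko libraries (SD, n = 4 each), with miR-499-5p, which is encoded in a myosin gene, as the most abundant (22.8 ± 4.97 and 19.5 ± 10.7 CPM). Of the cardiac pair, miR-208a-3p was not listed and miR-208b-3p was listed at 0.402 CPM in ko replicate 2 alone. Further gut and kidney miRNAs, led by miR-10a-5p, summed to 43.2 ± 47.3 CPM in the het and 35.9 ± 48.6 CPM in the ko libraries, and the 1 tested, miR-10a-5p, did not pass. A single library carried each mean, as het replicate 1 had 113.9 CPM and the other het libraries 15.8 to 24.03 CPM, and ko replicate 3 had 108.7 CPM and the other ko libraries 8.82 to 13.2 CPM. Further epithelial miRNAs summed to 5402 ± 2785 CPM in the het and 1514 ± 1418 CPM in the ko libraries. Here ko replicate 3 carried the ko mean, with 3607 CPM against 487.4 to 1099 CPM in the other ko libraries, and it lay above het replicate 3 with 2755 CPM. Of the 7 tested, 3 (miR-200a-3p, miR-200b-3p and miR-429-3p) were lower in ko by limma at an adjusted p under the threshold. Of the rest, miR-141-3p and miR-200c-3p did not pass, with log2 differences of -3.94 and -2.86 (limma adjusted p = 0.495 and 0.746). Nor did miR-31-5p and miR-184-3p, at -0.31 and 0.97 (limma adjusted p = 0.975 and 0.755). Their mean levels were higher in ko than in het, at 779.9 against 734.5 CPM and 27.8 against 13.8 CPM. In ko replicate 3, miR-31-5p had 1842 CPM, against 297.3 to 650.5 CPM in the other ko libraries. Of the members, miR-203-3p did not pass either and miR-205-5p was not in the fit. Of 4 sensory and neuroendocrine miRNAs, 3 (miR-182-5p, miR-183-5p and miR-96-5p) were lower in ko by limma as well. The sums of all 4 were 1089 ± 380 CPM in the het and 359 ± 55.9 CPM in the ko libraries. They include miR-7a-5p, which did not pass, at 315 ± 130 and 282 ± 83.3 CPM. The endocrine miR-375-3p did not pass either. The called miRNAs of the epithelial and sensory lists are the 6 called in the whole fit (1.30% of 463). Both lists were chosen with earlier results known. Whether these changes differ from those of the members was not tested.

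miRNAs of blood and vessels were examined in the same way. The miRNAs of red cells summed to 1911 to 3392 CPM in the het and 912 to 2380 CPM in the ko libraries, with means of 2427 ± 664 and 1482 ± 663 CPM. With limma 0 of 3 passed, while 1 (miR-451a) was lower in ko without adjustment, against 6.91% of all miRNAs. The red cell miRNA miR-451a was at 1214, 1912, 1711 and 1680 CPM in the het and 531.1, 1600, 580.5 and 1239 CPM in the ko libraries (log2 difference -0.86, limma unadjusted p = 0.0336 and adjusted p = 0.593). Its lowest libraries were ko replicates 1 and 3, and its highest ko library was replicate 2, which was also the highest ko library for miR-194-5p, miR-192-5p, miR-1a-3p and miR-133a-3p, but not for the other 4 members. miR-144-3p of the same list was also highest in replicate 2 among the ko libraries, at 620.6 CPM against 157.7 to 182.6 CPM. Its log2 difference was -1.07 (limma unadjusted p = 0.0558 and adjusted p = 0.613). In contrast, miR-486a/b-5p of this list had its lowest ko value in replicate 2, at 147.1 CPM against 171.5 to 295.2 CPM, and a log2 difference of 0.027 (limma adjusted p = 0.995). White cell and microglial miRNAs summed to 3214 ± 671 CPM in the het and 3124 ± 950 CPM in the ko libraries, those of endothelium to 8530 ± 2836 and 8068 ± 2685 CPM, those of smooth muscle to 5408 ± 661 and 4718 ± 1005 CPM, and those of choroid plexus to 3397 ± 957 and 3145 ± 983 CPM. None of the miRNAs in these 4 lists passed with limma, and 1 of choroid plexus was higher in ko without adjustment, against 7.34% of all miRNAs in either direction. The part of blood, vessels or other tissue in the levels of the 8 miRNAs was not tested.

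**Figure D5:**
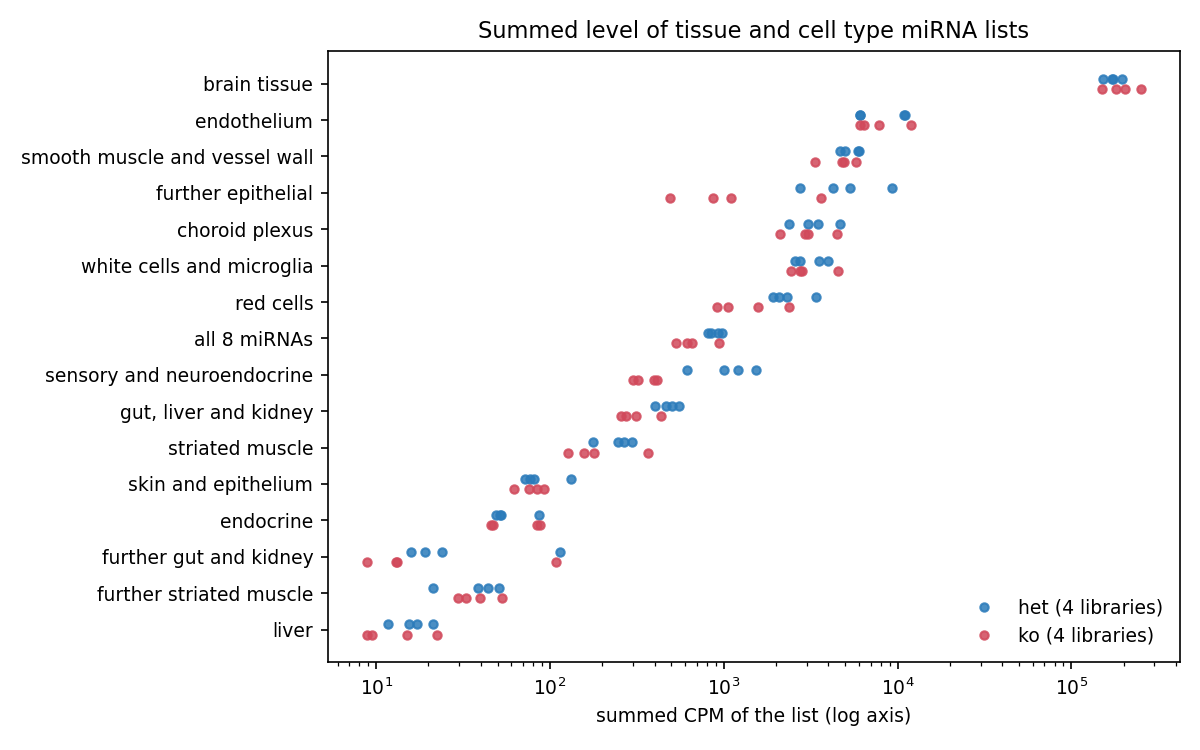
Summed levels in CPM, on a log axis, of the 8 miRNAs by home tissue and of the other lists of miRNAs in each library, with het and ko in separate colours. The brain list lies between 150660 and 251449 CPM, and the gut pair of miR-192-5p and miR-194-5p averages 480.1 ± 63.0 CPM in the het and 318.9 ± 81.1 CPM in the ko libraries.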

How the data were processed

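Argonaute-bound small RNA of 8 mouse brains was analysed, 4 of each genotype, with groups taken from the sample titles. The authors processed the reads with their SPOROS pipeline, and the submitters' processing notes name Trim Galore for trimming. The deposited table has 1 line per read sequence with its miRNA name, its CPM in each library (reads per 1000000 reads of the library, scaled by the authors) and the authors' viability score of its seed. For the read processing, neither a genome build nor tool versions were given in the sources used here. The table leaves out sequences with fewer than 8 reads in all, which affects shallow libraries more, and CPM are relative to the rest of the library. A deposited column of sums was not used. All values (100.0%) were whole multiples of 1 read when divided by what 1 read was worth (within 0.0005 CPM, the rounding of the table, plus 1e-06 of the value), which gave the depth of each library. No 2 libraries of the same genotype were the same within sampling noise, and pairs across genotypes were not compared.

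CPM were summed per miRNA name. A miRNA entered the fit at a mean of 10 CPM or more. The fit used limma 3.58.1 with the trend and robust options under R 4.3.3, took log2(CPM + 1) of both genotypes without a covariate, and was adjusted by Benjamini-Hochberg over all 463 miRNAs with a threshold of 0.05. A fold change on this scale understates that of scarce miRNAs. Since CPM are no counts, count models served as alternatives on the recovered reads, and edgeR 4.0.16 (TMM, quasi-likelihood) called 4 miRNAs and DESeq2 1.42.0 called 9. Values of 1 miRNA were compared by exact two-sided permutation tests over all 70 splits. Other steps used Python 3.11.15, numpy 2.4.6, scipy 1.17.1, pandas 2.3.3 and matplotlib 3.10.9. Simulated data with known changes were used to test the fits.

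The 8 members, the lists and the tests were chosen with earlier results of these data known. Named beside the members were other arms and seed relatives, the 3 most similar miRNAs of each member, and the most abundant or called miRNAs of each list. Brain miRNAs, miR-208a-3p and miR-208b-3p fall outside this rule and were named as examples of their lists. So do miR-141-3p, miR-200c-3p, miR-31-5p and miR-184-3p of the epithelial list and miR-144-3p and miR-486a/b-5p of the red cell list. They were named to show the spread within these lists. RefSeq sequences (GRCm38.p6) matched 4 members, and the other 4 were named only. Hairpin positions came from RefSeq and their surroundings from GENCODE M21. Alternatives were a pseudocount of 0.1 or 10, a filter at 1 or 100 CPM or none, median centring, a block by replicate number, the count models, leaving out each library or both libraries over 5000000 reads, and subsets of reads (the main seed, the most abundant read, 20 to 24 nt). Leaving out the shallowest and the 2 deepest libraries, and all alternatives for miR-205-5p, read starts and relations that were not planned, were chosen after seeing the data.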

Additional observations from a re-analysis of the deposited data

Results flagged for a closer look

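In 3 cases 1 library lay far from the other 3 of its genotype, by a gap that was beyond Dixon's critical value as a share of the whole range. Of 26 groups of 4 libraries examined, chance alone gives about 1.3 such cases (1 in 20 groups). For miR-133a-3p, ko replicate 2 was at 168.6 CPM and the nearest ko library at 76.9 CPM, a gap of 0.921 of the range. For miR-192-5p, ko replicate 2 was at 100.3 CPM and the nearest at 51.9 CPM, a gap of 0.857. Both concern the deepest library. For miR-375-3p, het replicate 1, the shallowest library, was at 86.9 CPM and the nearest het library at 52.2 CPM, a gap of 0.912. The part of depth in these values was not tested.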

How the results depend on the processing

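No member that could be tested was called under any of the 22 alternatives, while the number of all miRNAs called ranged from 4 to 9 when 1 library was left out, was 4 with edgeR and 9 with DESeq2, and was 10 in place of 6 with the replicate number as a block. The log2 difference of miR-194-5p stayed below 0 under all alternatives, from -0.86 to -0.22 (limma, edgeR or DESeq2 adjusted p from 0.208 to 0.988). Those of miR-1a-3p (-0.86 to -0.044) and miR-122-5p (-0.53 to -0.040) stayed below 0 as well. Directions of the remaining members were less stable. With median centring the difference was 0.045 for miR-133a-3p, 0.062 for miR-203-3p and 0.11 for miR-205-5p. With the most abundant read alone it was 0.13 for miR-203-3p, 0.014 for miR-192-5p and -0.052 for miR-375-3p, and with the main seed alone 0.042 for miR-203-3p. Without the libraries over 5000000 reads it was 0.29 for miR-205-5p, and without the shallowest too 0.45. The miR-194-5p share of other starts differed by -0.46 percentage points without the deep libraries. When each library was left out in turn, the difference ranged from -0.48 to 0.034 for miR-133a-3p, -0.25 to 0.013 for miR-203-3p, -0.034 to 0.31 for miR-375-3p and -0.54 to 0.26 for miR-205-5p, and for miR-194-5p from -0.13 to 0.97 percentage points for the share of other starts and -0.057 to 0.12 nt for length. The r of miR-1a-3p with miR-133a-3p then ranged from -0.16 to 0.57, of miR-192-5p with miR-194-5p from 0.65 to 0.87 (0.87 without het replicate 4, 0.83 without ko replicate 2), and of miR-203-3p with miR-205-5p from 0.24 to 0.82 (0.82 without het replicate 2), and was -0.19 without the 2 farthest libraries. Except where the reads or libraries left out are the change itself, the cause was not tested. At 100 CPM only 3 members (miR-194-5p, miR-1a-3p and miR-133a-3p) were tested, miR-122-5p was not tested with the most abundant read alone, and miR-205-5p was not tested with edgeR or DESeq2.

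The genotypes share replicate numbers, but the mice are different animals. Deviations of same-numbered libraries correlated at 0.038, 0.29, -0.18 and 0.25 over 463 miRNAs, and 3 of 8 libraries correlated best with their own number, so the numbers were not taken to pair the mice. With the replicate block, 10 miRNAs and 0 members were called, and the limma adjusted p of miR-194-5p was 0.488. Scarce members are limited by depth, since miR-122-5p and miR-205-5p rest on as few as 9 and 4 reads.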
